A study of Homo sapiens with 6 samples.

Results

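The ZMIZ and PIAS genes encode a small family of SUMO ligases and related coactivators, and their mRNAs were followed in RNA immunoprecipitation sequencing (RIP-seq) of Merkel cell carcinoma (MCC) cells. The members were taken by gene name and comprised ZMIZ1, ZMIZ2, PIAS1, PIAS2, PIAS3 and PIAS4, which are 6 of the 60655 genes in the count table. The family was chosen with its fold changes in this same contrast already known, so these fold changes are given as a description and without p-values.

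RNA was recovered from WaGa cells, an MCC cell line of wild-type genotype kept without treatment, with an antibody against IGF2BP3 (3 libraries) or with control IgG (3 libraries). Both groups thus came from the same line and differed, as far as the labels say, in the antibody alone, and no library of total input RNA was analysed here. In such a design the reads on an mRNA in one IP depend both on how much of it the cells hold and on how much was recovered, which cannot be told apart within that IP. A total of 10 of 11 MCC markers, among them KRT20, ATOH1 and SOX2, had at least 10 counts in every library, and NEUROD1 had 0 to 2 counts. Of markers of other cell types, 0 of 5 reached 10 counts in any library.

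SUMO is a small protein that is joined to lysines of other proteins. It is activated by the SAE1-UBA2 enzyme and placed on its targets with the help of ligases, while SENP proteases remove it. The PIAS proteins carry a zinc-binding SP-RING domain and are known as regulators of transcription factors and of the DNA damage response. ZMIZ1 and ZMIZ2 share this type of domain and are known mainly as transcriptional coactivators, ZMIZ1 of NOTCH1, p53 and SMAD proteins, and ZMIZ2 of beta-catenin. IGF2BP3 is an oncofetal RNA-binding protein that recognises clusters of short CA-rich and GGC-containing elements.

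To show which letters of this kind the 6 mRNAs hold, the sense strand of each canonical transcript (GENCODE version 44, GRCh38) was searched for CACA, GGC and GGAC, the last being the core of the commonest RNA methylation motif. Overlapping matches were counted. A 30-base window with the most matches, holding at least 1 CACA and at least 1 GGC or GGAC, is printed for each member. It reads 5′ to 3′ on the strand of the gene, with the matches in capitals. Only windows within a single exon were printed, and where windows tied the first from the 5′ end was taken.

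ZMIZ1: ccGGCatcagcccctttGGCACACAcgGGC
ZMIZ2: cGGCccggggGGCctgGGCctcccctCACA
PIAS1: ctacgcatgtgtattcCACACACAaatGGC
PIAS2: cagctCACAccagcgtgGGCtgtgttCACA
PIAS3: ctctGGCcaagGGCcagacagaccttCACA
PIAS4: ctcttaaaaacaaGGCcGGCcaccCACACA

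The printed windows of both ZMIZ mRNAs lay in coding sequence, in exon 12 of ZMIZ1 (chr10:79293541-79293570, plus strand) and in exon 5 of ZMIZ2 (chr7:44757387-44757416, plus strand). Those of the 4 PIAS mRNAs lay in the 3′ UTR, in exon 14 of PIAS1 (chr15:68189707-68189736, plus strand), PIAS2 (chr18:46805584-46805613, minus strand) and PIAS3 (chr1:145849325-145849354, minus strand), and in exon 11 of PIAS4 (chr19:4038113-4038142, plus strand). The ZMIZ1 window held 5 matches, and 21.7% of 14479 canonical transcripts of tested genes had a window with as many or more. These shares do not allow for length, although longer transcripts hold more windows and ZMIZ1 is longer than 90.7% of these transcripts. The windows of ZMIZ2, PIAS1 and PIAS4 held 4 matches, as many as the median transcript, and those of PIAS2 and PIAS3 held 3, a number that 84.8% of transcripts reached. Tied windows elsewhere in a transcript were not counted. The region of a printed window is therefore not read as a difference between ZMIZ and PIAS mRNAs. A match describes the letters and not a bound site.

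Sequencing gave 9758759 to 14886414 gene-level counts per library, and 14507 genes passed the filter on low counts, including 6 of 6 members. Levels between libraries are given as CPM, which are counts scaled to a common library size with TMM factors, and fold changes as log2 values of the IGF2BP3 IP over the IgG IP with the standard error (SE) of the edgeR fit. The replicate 1 libraries of both IPs stood apart from replicates 2 and 3. Chi-square per degree of freedom, the squared count difference relative to sampling noise, was 16.3 to 19.7 for pairs with replicate 1. It was 2.13 to 3.06 between replicates 2 and 3. Values without each library and with the replicate number as a block are given where they change a call.

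ZMIZ1 had the highest fold change of the family. Its level was 76.1, 101 and 100 CPM in IgG IP replicates 1, 2 and 3, on 702 to 1512 counts. In the IGF2BP3 IP it was 235, 304 and 251 CPM, on 2798 to 4024 counts. The lowest IGF2BP3 library therefore lay well above the highest IgG library, and replicate 1 was the lowest library of each IP. The means were 263 ± 36.2 CPM against 92.5 ± 14.2 CPM (SD, n = 3), a 2.84-fold difference with a log2 fold change of 1.51 ± 0.14 (SE). Within same-numbered replicates the log2 difference was 1.63, 1.58 and 1.32. ZMIZ1 ranked 19 of 14507 tested genes by fold change.

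ZMIZ2, the paralog of ZMIZ1, was the other member with a clear difference, at a lower level. It had 16.3, 20.9 and 17.9 CPM in the 3 IgG libraries, on 150 to 312 counts. The IGF2BP3 libraries had 30.6, 38.0 and 39.5 CPM, on 364 to 503 counts. The groups did not overlap, and each same-numbered pair differed in the same direction, by 1.88-, 1.82- and 2.21-fold. The log2 fold change was 0.97 ± 0.14 (SE), or 1.95-fold, which ranked 145 of 14507. It lay 0.54 below that of ZMIZ1 on the log2 scale.

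**Figure D1:**
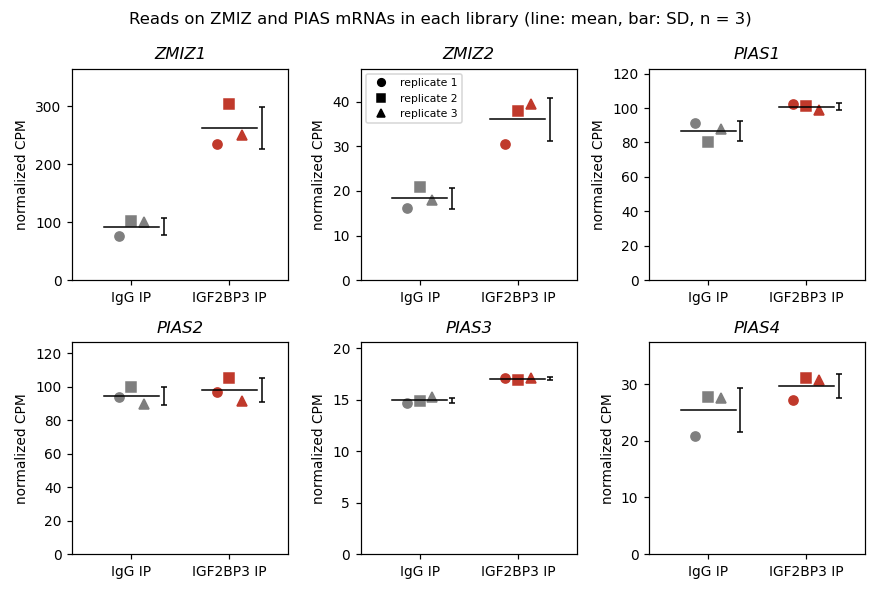
Normalized CPM (y axis, from 0) of the 6 mRNAs in the 3 IgG IP and 3 IGF2BP3 IP libraries, with 1 symbol per replicate, a line at the mean and a bar for the SD. The IGF2BP3 libraries of ZMIZ1 (235 to 304 CPM) and ZMIZ2 (30.6 to 39.5 CPM) sit far above the IgG libraries, those of PIAS1 and PIAS3 sit just above them, and those of PIAS2 and PIAS4 overlap them.

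The 4 PIAS mRNAs had small differences, with log2 fold changes from 0.05 to 0.22. PIAS1, known as a regulator of cytokine signalling, had 91.5, 80.5 and 87.9 CPM in the IgG IP. It had 102, 101 and 98.6 CPM in the IGF2BP3 IP. The groups did not overlap, and the log2 fold change was 0.22 ± 0.08 (SE).

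PIAS3, known as an inhibitor of STAT3, was the least abundant PIAS mRNA and the most even between libraries. The IgG libraries had 14.7, 14.9 and 15.2 CPM and the IGF2BP3 libraries 17.1, 16.9 and 17.2 CPM. The groups did not overlap, on 136 to 224 counts per library. The log2 fold change was 0.19 ± 0.11 (SE). This SE takes in the sampling noise of the counts and the spread of other genes at this count level. It therefore exceeds the narrow spread seen here.

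PIAS2, a coregulator of transcription, showed the smallest difference. It had 94.0, 100.0 and 89.6 CPM in the IgG IP and 97.1, 105 and 91.5 CPM in the IGF2BP3 IP. The groups overlapped, and the log2 fold change of 0.05 ± 0.09 (SE) was smaller than its error, although the same-numbered pairs differed by 0.05, 0.08 and 0.03 in the same direction. PIAS4, known for its work at sites of DNA damage, also overlapped between groups. It had 20.9, 27.8 and 27.6 CPM in the IgG IP and 27.2, 31.1 and 30.7 CPM in the IGF2BP3 IP, with a log2 fold change of 0.22 ± 0.14 (SE). The IGF2BP3 library was the higher one in each same-numbered pair, by 0.38, 0.16 and 0.16 on the log2 scale. IgG replicate 1 was the low library, and without it the log2 fold change was 0.10.

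Of the 6 members, 2 passed the thresholds of the study (a fold change of at least 1.5 and an adjusted p under 0.05, here in edgeR's quasi-likelihood test), ZMIZ1 and ZMIZ2. Over all tested genes 169, or 1.16%, did so in the direction of the IGF2BP3 IP and 0 in the direction of IgG, where 59 genes were at least 1.5-fold lower at an unadjusted p under 0.05 and DESeq2 also called 0. With the replicate number as a block, 517 genes passed in the direction of the IGF2BP3 IP and 15 in the direction of IgG. Every IGF2BP3 library lay above every IgG library for 4 of 6 members, against 12.0% of tested genes, and below every IgG library for 0 of 6, against 8.69%. Because the family was selected on this contrast, nothing is read from these counts. Without IGF2BP3 replicate 2, 0 members and 0 genes passed. ZMIZ2 also failed to pass without IgG replicate 2, IgG replicate 3 or IGF2BP3 replicate 3, although its log2 fold change stayed between 0.88 and 1.07 when any 1 library was left out, and that of ZMIZ1 between 1.38 and 1.58.

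**Figure D2:**
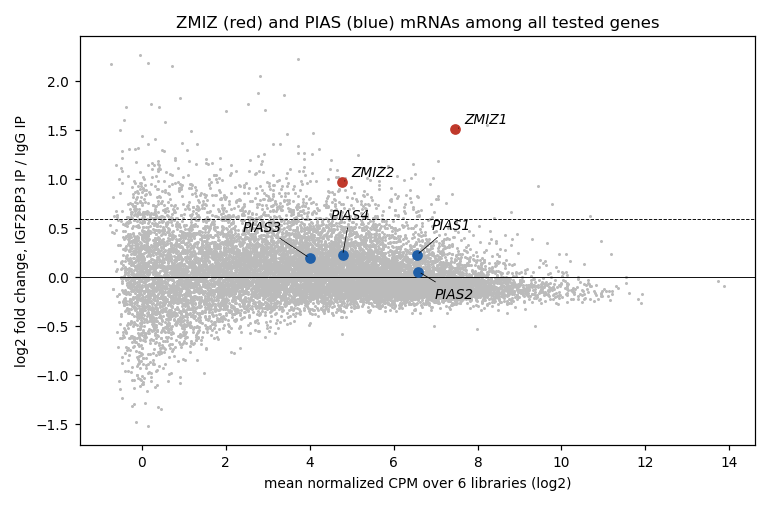
Log2 fold change of the IGF2BP3 IP over the IgG IP (y axis) against mean normalized CPM on a log2 scale (x axis) for the 14507 tested genes (grey), with ZMIZ genes in red and PIAS genes in blue. The dashed line marks a 1.5-fold difference, above which ZMIZ1 (1.51) and ZMIZ2 (0.97) lie, while the PIAS genes lie between 0.05 and 0.22.

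The balance of the family differed between the 2 IPs. ZMIZ1 held 24.3, 29.3 and 29.6% of the family's counts in IgG replicates 1, 2 and 3 and 46.1, 50.9 and 47.5% in the IGF2BP3 replicates. The 4 PIAS mRNAs together held 66.8 ± 3.29% in the IgG IP and 45.2 ± 2.60% in the IGF2BP3 IP (SD, n = 3). The summed level of the PIAS mRNAs was 222 ± 1.44 CPM in the IgG IP and 245 ± 8.43 CPM in the IGF2BP3 IP. The summed level of both ZMIZ mRNAs was 111 ± 16.2 CPM and 299 ± 39.0 CPM. The share of ZMIZ2 overlapped between the IPs, at 5.51 ± 0.47% and 6.62 ± 0.77%.

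Levels were compared between members on the deposited TPM, which scale reads for both transcript length and library size. In the IgG IP the order was PIAS2 at 29.5 ± 7.01 TPM, PIAS1 at 28.5 ± 5.26, ZMIZ1 at 22.2 ± 8.06, PIAS4 at 12.6 ± 4.73, PIAS3 at 6.55 ± 1.31 and ZMIZ2 at 5.34 ± 1.02 (SD, n = 3). PIAS4 and PIAS3 were the only neighbours in this order whose ranges over libraries did not overlap. Compared within a library, each member was above the next in all 3 libraries, except PIAS2 over PIAS1 in 2 of 3. In the IGF2BP3 IP ZMIZ1 came first at 58.9 ± 16.1 TPM, followed by PIAS2 at 35.8 ± 5.63, PIAS1 at 33.4 ± 5.28, PIAS4 at 16.0 ± 4.55, ZMIZ2 at 10.0 ± 2.47 and PIAS3 at 7.90 ± 1.26. ZMIZ1 thus moved from below PIAS2 and PIAS1 to first and ZMIZ2 from last past PIAS3. Ranges over libraries overlapped between PIAS2 and PIAS1 and between ZMIZ2 and PIAS3. Within each library, however, the ratio of ZMIZ2 to PIAS3 was 0.829, 0.822 and 0.802 in the IgG IP. It was 1.11, 1.33 and 1.32 in the IGF2BP3 IP. The ratio of ZMIZ1 to PIAS1 in TPM was 0.536, 0.808 and 0.953 in the IgG libraries and 1.55, 2.25 and 1.49 in the IGF2BP3 libraries. The IgG order was the same on FPKM. When CPM was divided by the length of the canonical transcript instead, ZMIZ1 came first in the IgG IP at 12.2 CPM per kb, a measure that differs from the deposited TPM in both the read counts and the lengths used.

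**Figure D3:**
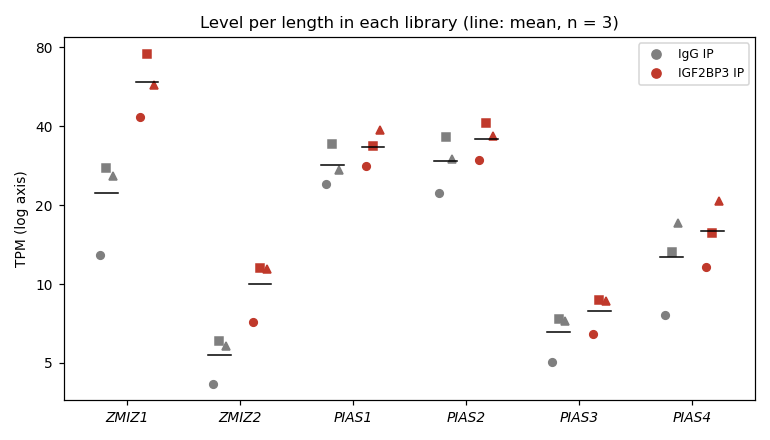
TPM on a log axis for each member in the IgG IP (grey) and the IGF2BP3 IP (red), with 1 symbol per library (circle, square and triangle for replicates 1, 2 and 3) and a line at the mean. ZMIZ1 lies below the PIAS1 and PIAS2 means in the IgG IP (22.2 TPM) and above them in the IGF2BP3 IP (58.9 TPM).

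GAPDH, a housekeeping mRNA often used as a reference, was itself uneven, with 346 ± 93.3 CPM in the IgG IP and 544 ± 126 CPM in the IGF2BP3 IP, a log2 fold change of 0.66 ± 0.20 (SE; edgeR adjusted p = 0.21). Relative to GAPDH in the same library, the log2 difference between IPs was 0.85 for ZMIZ1 and 0.31 for ZMIZ2. For PIAS1, PIAS2, PIAS3 and PIAS4 it was -0.44, -0.61, -0.47 and -0.43, so the sign of the PIAS values depends on this reference. On that scale the groups overlapped for 6 of 6 members. The SD within an IP was 0.30 to 0.60 log2 on that scale, against 0.02 to 0.21 (both IPs pooled) without the reference. The share of all tested genes overlapping on that scale was not computed, so nothing is read from this count. MYC had 5 to 14 counts per library, too few to serve as another reference.

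The genes lie in different places of the genome (GRCh38, GENCODE version 44). ZMIZ1 is at chr10:79068966-79316519 on the plus strand, ZMIZ2 at chr7:44748581-44769881 on the plus strand, PIAS1 at chr15:68054309-68198603 on the plus strand, PIAS2 at chr18:46803218-46920160 on the minus strand, PIAS3 at chr1:145848522-145859836 on the minus strand and PIAS4 at chr19:4007736-4039386 on the plus strand. No annotated gene overlaps ZMIZ1, ZMIZ2 or PIAS4. Among the overlapping genes of the other members that the count table holds, the most reads were 37 to 62 counts for KATNAL2, opposite PIAS2, and 9 to 25 counts for ENSG00000260007, opposite PIAS1. CALML4 (PIAS1), ENSG00000267587 and ENSG00000279354 (PIAS2), and NUDT17 and MIR6736 (PIAS3) had at most 15 counts. ENSG00000289168, opposite PIAS2, was not measured here. ZMIZ1-AS1 had 0 to 1 counts.

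The canonical transcripts also differed in features that the choice of members did not use. Both ZMIZ mRNAs are rich in G and C, 57.7% in ZMIZ1 and 61.9% in ZMIZ2 against a median of 47.7% over the canonical transcripts of tested genes. PIAS4 (61.7%) and PIAS3 (53.9%) share this, while PIAS1 (40.2%) and PIAS2 (39.4%) lie below the median. ZMIZ1 (7615 bases), PIAS1 (7980 bases) and PIAS2 (11243 bases) are long, and PIAS2 owes 9215 bases to its 3′ UTR. ZMIZ1 and ZMIZ2 have the longest coding sequences of the family, 3204 and 2763 bases.

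Density of the short elements did not part the family cleanly. GGC was found 25.6 times per kb in ZMIZ1 and 30.0 times in ZMIZ2, against a median of 16.4. However, PIAS4 was as dense at 27.4, and PIAS3 also lay above the median at 22.4. CACA was found 6.04 times per kb in ZMIZ1, 5.93 in ZMIZ2 and 5.39 in PIAS1, above the median of 4.30, and 2.05 to 3.58 times in the other PIAS mRNAs. ZMIZ1 and ZMIZ2 were the members above the median in both elements, at a density that 17.5% and 18.8% of transcripts reached for CACA and 23.1% and 13.6% for GGC. GGAC was densest in PIAS4, at 6.52 per kb. After correction of each library for transcript GC content the log2 fold change was 1.39 for ZMIZ1, 0.81 for ZMIZ2, 0.33 for PIAS1, 0.17 for PIAS2, 0.12 for PIAS3 and 0.06 for PIAS4.

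**Figure D4:**
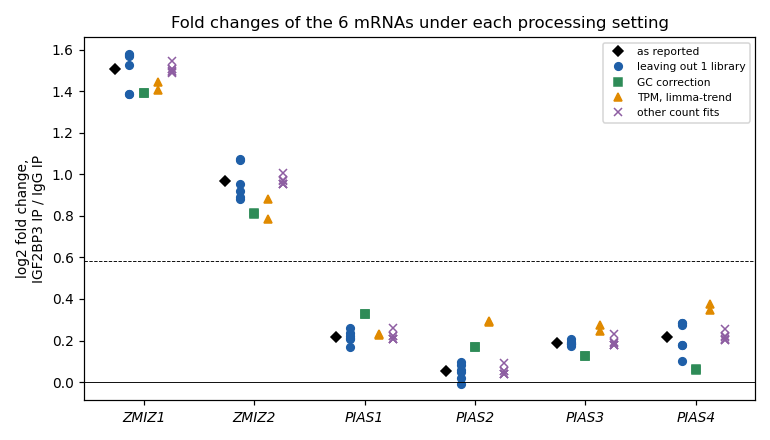
Log2 fold change of the IGF2BP3 IP over the IgG IP (y axis) for each member as reported and under 16 other settings, with 1 symbol per setting. ZMIZ1 stays between 1.38 and 1.58 and ZMIZ2 between 0.78 and 1.07, above the dashed line at 1.5-fold, while the PIAS mRNAs stay below it.

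The rest of the SUMO pathway was examined to set the family in its context, as 26 genes of which 24 were tested. A total of 0 passed the thresholds in either direction, 3 had an unadjusted p under 0.05 in edgeR, against 12.8% of all tested genes, and DESeq2 also called 0. Their median log2 fold change was -0.05, against -0.01 over all tested genes. Every IGF2BP3 library lay above every IgG library for 3 of 24, against 12.0% of tested genes, and below for 5 of 24, against 8.69%. The lists were chosen with earlier results known, so nothing is read from these counts. Among the SUMO proteins and the first enzymes of the pathway, 6 of 7 were tested, and 2 of these 6 were among those below. SUMO2, a modifier that forms chains, had -0.10 and SUMO3, its close relative, had -0.04, with overlapping libraries for both.

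Of 10 other SUMO ligases and SUMO-targeted ubiquitin ligases, 9 were tested. TRIM28, a corepressor that can act as a SUMO ligase, came nearest to the thresholds. It had 70.8, 89.0 and 89.1 CPM in the IgG IP and 116, 124 and 124 CPM in the IGF2BP3 IP. Its log2 fold change was 0.54 ± 0.10 (SE) with an edgeR adjusted p of 0.041, just under the fold change asked for. MUL1, a mitochondrial ligase, had 0.47, and NSMCE2 and TOPORS had -0.18 and -0.14. Among 9 SUMO proteases, DESI1 (0.24) and SENP1 (0.22) were the highest and SENP6 (-0.18) and SENP7 (-0.17) the lowest.

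**Figure D5:**
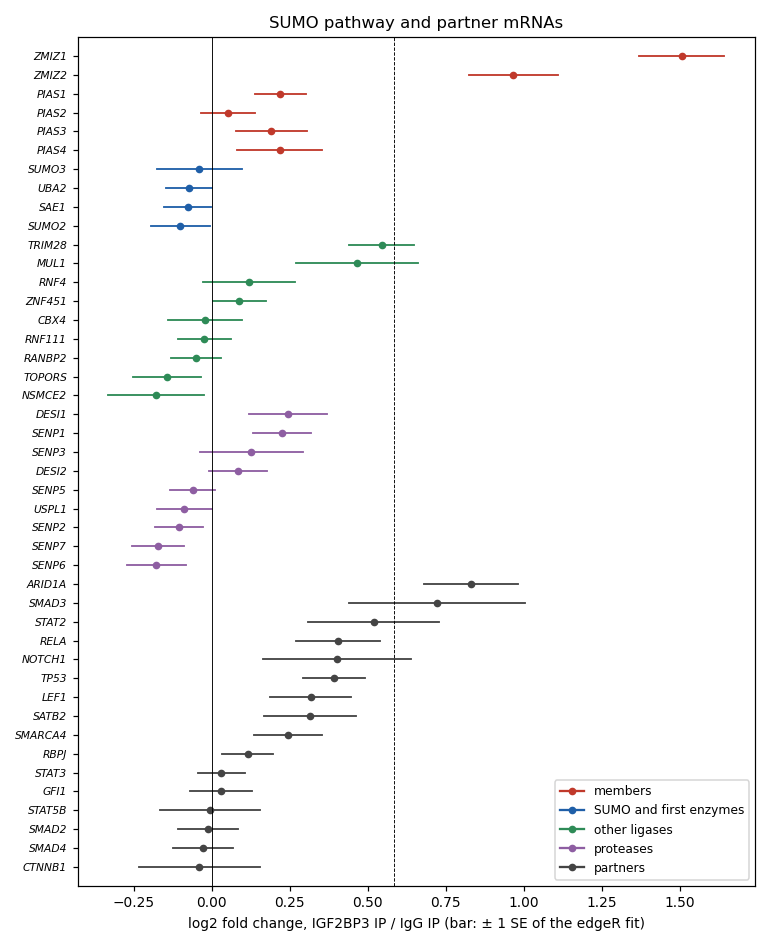
Log2 fold change of the IGF2BP3 IP over the IgG IP (x axis, bars ± 1 SE of the edgeR fit) for the 6 members, 22 of the 24 tested SUMO pathway genes and 16 of the 17 tested partner genes, the others not being shown. The dashed line marks 1.5-fold, which ZMIZ1 (1.51), ZMIZ2 (0.97), ARID1A (0.83) and SMAD3 (0.72) exceed.

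Finally, 22 genes of transcription factors and cofactors known to work with ZMIZ or PIAS proteins were examined, of which 17 were tested and 5, among them STAT4, STAT5A, STAT6 and TCF7L2, were below the filter. Of these, 1 of 17 passed the thresholds, namely ARID1A, a subunit of SWI/SNF chromatin remodelling complexes. ARID1A had 50.9, 57.9 and 60.2 CPM in the IgG IP and 77.7, 119 and 104 CPM in the IGF2BP3 IP. Its log2 fold change was 0.83 ± 0.15 (SE) with an edgeR adjusted p of 0.037. It passed without IGF2BP3 replicate 1 but not without any of the other 5 libraries, nor after GC correction (0.72, adjusted p = 0.080), where it passed again once the replicate block was added (adjusted p = 2.5e-07). ARID1A was measured in the same libraries as the members, and the lists were chosen with earlier results known, so it is not independent evidence. SMAD3, which transmits TGF-beta signals, had 0.72 ± 0.28 (SE) on 11 to 41 counts with an edgeR adjusted p of 0.32, and CTNNB1, encoding beta-catenin, had -0.04. The median over the 17 was 0.24, against -0.01 over all tested genes, and 13 lay above 0. An unadjusted p under 0.05 in edgeR was found for 6 of 17, against 12.8% of all tested genes. Every IGF2BP3 library lay above every IgG library for 8 of 17, against 12.0%. Since the list was chosen with earlier results known, nothing is read from these counts.

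Genes whose level followed that of a ZMIZ mRNA most closely were looked for among 9461 genes with a mean of at least 100 counts, by Pearson's r of log2 CPM over the 6 libraries. For ZMIZ1 they were CHD7 (r = 0.999), CDCP1 (0.997) and TUG1 (0.996), and for ZMIZ2 they were ZNF687 (0.998), DVL3 (0.997) and SCMH1 (0.997). A high r does not mean a like fold change, since CHD7 had a log2 fold change of 0.21 and DVL3 of 1.11. ZMIZ1 and ZMIZ2 followed each other with r = 0.976, and ZMIZ1 followed PIAS3 with 0.970 and PIAS2 with 0.411. These values describe 6 libraries that fall into 2 IPs and share the offset of replicate 1.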

How the data were processed

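RIP-seq libraries of WaGa cells (3 IgG IP, 3 IGF2BP3 IP) were grouped by their titles. Per the study's methods, the authors aligned reads to GRCh38 with STAR 2.7.9a and quantified them with RSEM on GENCODE version 37. The deposited counts were whole numbers per gene, and the program that counted them and its use of strand are not given in the sources used here. The deposited TPM and FPKM were length-corrected by the authors.

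Counts were filtered with filterByExpr, scaled by TMM and tested with edgeR 4.0.16 (quasi-likelihood, R 4.3.3, Benjamini-Hochberg adjustment), on 9758759 to 14886414 counts per library. DESeq2 1.42.0 (independent filtering at 0.05), size factors, library totals, no filter, a minimum of 10 counts, a replicate block, GC correction (loess, span 0.5), each library left out, and limma 3.58.1 on log2(TPM + 1) or log2(TPM + 0.1) were alternatives. Fits were also run on simulated counts that lacked the offset of replicate 1 and had changes far larger than 1.5-fold, with limma on log2(CPM + 1). That run does not bear on calls near the thresholds or on the TPM settings. Nothing states that replicates were separate cultures, so p-values may measure technical spread.

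Same-numbered libraries of both IPs deviated together from their group means over genes (correlations 0.57, 0.28 and 0.23). The numbers were therefore taken to pair them in the same-numbered differences and in the replicate block, although replicates 2 and 3 correlated as much when crossed (0.27 and 0.28). Unless the block is named, the SEs, adjusted p-values and calls come from the edgeR fit without pairing.

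Named genes were the members, genes overlapping them, those of each list past the thresholds or otherwise with the highest and lowest fold changes, GAPDH, MYC, and the 3 genes most like each ZMIZ gene. Some genes of the lists are counted but not reported by name here. Members and lists were chosen with earlier results of these data known. Motifs were searched in canonical transcripts of GENCODE version 44, which is later than the version the authors used.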

Additional observations from a re-analysis of the deposited data

How the results depend on the processing

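The 6 log2 fold changes kept their direction under the 16 alternatives, except that of PIAS2, which was -0.01 without IGF2BP3 replicate 2. ZMIZ1 passed the thresholds in 13 of 16 alternatives and ZMIZ2 in 10, and the PIAS genes in none. These settings reuse the same 6 libraries, and the family was chosen with this contrast known. The tally therefore describes the processing and is not separate evidence. The number of genes past the thresholds in the direction of the IGF2BP3 IP was 169 as reported. It was 280 with DESeq2, 359 without a filter, 517 with the replicate block and 110 with GC correction. With GC correction and the replicate block it was 347. With either pseudocount on TPM it was 0. There, 476 (pseudocount 1) and 617 (pseudocount 0.1) genes were at least 1.5-fold higher at an unadjusted p under 0.05. The number past the thresholds ranged from 0 to 244 when 1 library was left out. It was 134 without IgG replicate 1, 244 without IGF2BP3 replicate 1, 19 without IgG replicate 2 and 0 without IGF2BP3 replicate 2. Without IgG replicate 3 it was 7, and without IGF2BP3 replicate 3 it was 23. In the direction of IgG, 15 genes passed with the replicate block, 24 with GC correction and the replicate block, and 1 without a filter. Members past the thresholds numbered 0 on TPM with either pseudocount and 0 to 2 when 1 library was left out. Partner genes past the thresholds numbered 0 with GC correction, 1 with GC correction and the replicate block, 0 on TPM with either pseudocount, and 0 to 1 when 1 library was left out. Beside the number of all genes and the ARID1A call after GC correction, the replicate block changed no call among the members and lists. The TPM settings moved the median of all tested genes to 0.11 and 0.13, against which the PIAS values on TPM + 1 of 0.22 to 0.35 are to be read. The causes were not tested.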
